A study of Mus musculus with 19 samples.

Results

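The 11 libraries of EpCAM+ cells in this series of 19 RNA-seq libraries fell into 2 classes by their level of Col18a1, the collagen XVIII gene. In 3 libraries Col18a1 was under 150 CPM (counts-per-million of all transcript reads) and in 8 it was over 400. The 3 were V53175, V53176 and N53178, named here by the mouse number in the labels with V for vehicle or N for neratinib. By the rule's own measure they stood at 48.9, 60.7 and 40.8 CPM, and the 8 ran from 668 in N53180 to 1036 in V53185, so the libraries nearest the thresholds were V53176 and N53180. The classes were set from expression in these same libraries, so all differences between them are given as a description without a test, and they support nothing about the split itself.

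All mice were C57BL/6J carrying pancreatic ductal adenocarcinomas grown orthotopically from transplanted organoids named T-LOH KPC, so the control tumours carried the same organoid lesions as the treated ones. They received vehicle or the pan-ERBB kinase inhibitor neratinib for 2 weeks. EpCAM+ (epithelial) and PDPN+ (fibroblast) cells were sorted by flow cytometry, and RNA was amplified with a low-input kit. The EpCAM+ libraries were 6 vehicle and 5 neratinib, and the PDPN+ libraries, used below as libraries the rule did not touch, were 4 and 4. The class under 150 CPM held 2 vehicle and 1 neratinib libraries and the class over 400 held 4 and 4. That this number identifies a mouse is inferred from the labels, and all p-values below depend on it.

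Collagen XVIII is a basement membrane proteoglycan whose C-terminal fragment is endostatin. Dusp1 is an immediate early gene for a phosphatase that switches off MAP kinases, and genes of this kind are known to respond within minutes to growth factors, heat and tissue dissociation. Mgat2 encodes a Golgi enzyme that turns hybrid N-glycans into complex ones, and neither it nor Col18a1 is known as an immediate early gene. Levels below are CPM of gene reads after TMM scaling of the 11 libraries, and differences are of mean log2(CPM + 0.5), class under 150 minus class over 400.

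Dusp1 stood at 2204, 1836 and 1065 CPM in V53175, V53176 and N53178, against 75.6 to 238 with a median of 93.2 in the 8 others (difference 3.99). Mgat2 stood at 167, 171 and 121 CPM in the 3, against 13.9 to 22.8 with a median of 18.8 (3.02). Col18a1 on this scale stood at 50.3, 60.5 and 40.1 CPM, against 686 to 1050 with a median of 812 (-4.04). For each of these genes the 3 libraries lay together and the ranges did not overlap, with V53192 the highest of the 8 for Dusp1. Higher and lower genes also differed in base composition, as described below, so the most GC-rich 60 bases of the coding sequence are shown for 3 genes that were higher and 3 that were lower, with each CG pair in capitals (GENCODE M21 transcripts, 5′ to 3′). Chpf2 encodes a chondroitin polymerising factor and Lamb2 a laminin chain of basement membranes. The 6 genes were chosen after their values were seen.
Dusp1, coding bases 264 to 323: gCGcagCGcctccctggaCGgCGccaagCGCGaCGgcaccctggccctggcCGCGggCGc
Mgat2, coding bases 95 to 154: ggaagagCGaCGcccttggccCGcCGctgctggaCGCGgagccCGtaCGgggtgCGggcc
Jun, coding bases 528 to 587: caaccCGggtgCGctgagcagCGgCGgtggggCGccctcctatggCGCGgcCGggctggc
Col18a1, coding bases 996 to 1055: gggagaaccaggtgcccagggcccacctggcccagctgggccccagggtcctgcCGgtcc
Chpf2, coding bases 1914 to 1973: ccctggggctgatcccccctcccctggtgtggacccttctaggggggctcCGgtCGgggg
Lamb2, coding bases 4232 to 4291: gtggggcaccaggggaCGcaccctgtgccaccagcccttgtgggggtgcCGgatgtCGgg
The stretches of Dusp1, Mgat2 and Jun hold 10, 9 and 8 CG pairs at 83.3, 78.3 and 80% GC. Those of Col18a1, Chpf2 and Lamb2 hold 1, 2 and 3 CG pairs at 76.7, 75 and 73.3% GC.

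**Figure D1:**
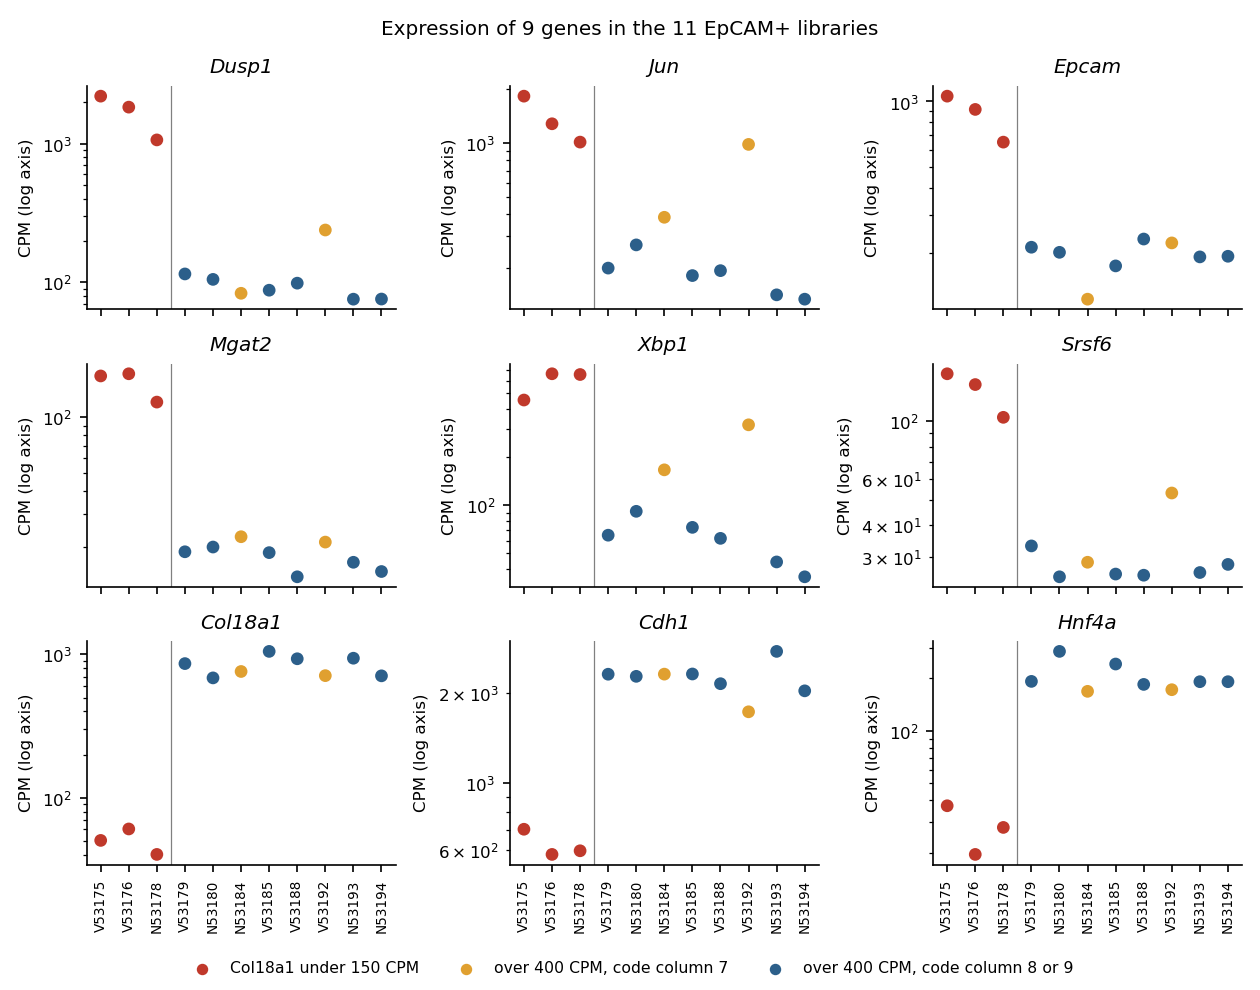
TMM-scaled CPM (log axis) of 9 genes in each of the 11 EpCAM+ libraries, 1 point per library. Red points are the 3 libraries under 150 CPM of Col18a1, orange points the 2 libraries over 400 whose code in the deposited names has column 7 (N53184 and V53192), and blue points the other 6. For each of the 9 genes the red points lie apart from all others, and for Jun and Xbp1 both orange points lie above the blue ones.

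Genes were counted where the ranges of the classes did not overlap and the means differed at least 2-fold. This held for 2042 of 18596 genes with at least 10 reads in at least 3 libraries (11.0%), 667 of them higher (3.59%) and 1375 lower (7.39%) in the class under 150, shares from which nothing is read because the rule used this contrast. Differences of at least 8-fold were counted for 26 higher and 57 lower genes. Most genes were near 0: the median over all 18596 was 0.006 and 67.7% lay within 0.5. By the rule for named genes (a mean of at least 20 CPM over the 11 libraries), the highest differences after islet genes and Dusp1 were in Sumf1, the activator of sulfatases (3.38), Rcn2, a calcium-binding protein of the endoplasmic reticulum (3.27), Tmem102 (3.24), H1f0, a linker histone (3.15), and Ndfip1, an adaptor of ubiquitin ligases (3.14). Sumf1 stood at 71.1, 70.3 and 46.5 CPM in V53175, V53176 and N53178, against 4.36 to 7.00 with a median of 5.50 in the 8. Rcn2 stood at 235, 225 and 169 CPM, against 14.3 to 77.9 with a median of 16.8, and H1f0 at 657, 824 and 809 against 48.5 to 197 with a median of 69.8. The 3 libraries lay far above the rest for each of these, and the highest of the 8 was V53192.

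The lowest differences were in Chpf2 (-4.55), Axl, a receptor tyrosine kinase (-4.07), Padi2, a peptidylarginine deiminase (-4.06), Col18a1, Atg9a, an autophagy lipid scramblase (-3.76), and Map1s, a microtubule-associated protein (-3.74). Chpf2 stood at 2.86, 1.65 and 1.66 CPM in the 3, against 48.3 to 71.3 with a median of 59.9. Atg9a stood at 3.35, 4.09 and 3.71 CPM, against 51.1 to 68.5 with a median of 54.8, and Axl at 0.803, 6.97 and 3.49 against 12.2 to 159 with a median of 72.3. The 8 libraries were close together for Chpf2 and Atg9a and widely spread for Axl.

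In the gene lists, counts are to be seen beside the 3.59% of all genes counted higher and 7.39% lower, and differences between lists were not tested. Of 44 tested immediate early and dissociation stress genes 3 were counted higher and 4 lower, close to those shares, with a median difference of -0.01 against 0.006 for all genes. Their summed level overlapped, at 16642 to 23778 CPM in the class under 150 against 17869 to 21511 in the class over 400. The 3 higher were Dusp1, a marker chosen together with the classes, and Jun and Egr1, described below. Jun, an AP-1 subunit, stood at 1830, 1281 and 1011 CPM in V53175, V53176 and N53178, against 133 to 981 with a median of 196 (2.44), so the ranges were apart by little because V53192 lay near the 3. Fosb, another AP-1 subunit, went the other way, with 164, 147 and 120 CPM against 578 to 1102 and a median of 747 (-2.40). Named after their values were seen, Fos stood at 6810, 4423 and 4728 CPM against 4083 to 7472 with a median of 6611, and Atf3, a stress-induced repressor, at 1653, 1281 and 1051 against 1031 to 1607, so both overlapped. Egr1, a zinc finger factor of the same class, was counted higher at 924, 869 and 481 CPM against 256 to 455.

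Of 20 heat shock and chaperone genes 1 was counted higher and 1 lower (median 0.17), and 13 had a positive difference. Their summed level, which follows the most abundant members, was apart and higher in the class under 150 (10338 to 12520 CPM against 7732 to 9153). The small heat shock gene Hspb1 stood at 83.2, 98.5 and 46.7 CPM against 4.08 to 70.1 with a median of 7.17, an overlap made by V53192 alone. Hspa1b, an inducible HSP70 gene, stood at 30.9, 24.1 and 15.7 CPM against 24.9 to 138. Of 24 genes of the unfolded protein and integrated stress responses 3 were higher and 2 lower (median -0.06), and 10 had a positive difference. Their sums were also apart and higher in the class under 150 (7898 to 8525 CPM against 6616 to 7855). Xbp1, a transcription factor of the unfolded protein response, stood at 455, 663 and 656 CPM against 35.7 to 318 with a median of 68.9. Hyou1, a chaperone known as a product of that response, stood at 10.3, 7.29 and 9.48 CPM against 56.7 to 86.1. These 2 of the 24 genes thus lay in opposite directions, from which nothing is read about the response. Of 15 p53 targets 1 was higher, Phlda3, at 79.2, 53.2 and 50.8 CPM against 3.59 to 21.1. A positive difference was seen in 12 of the 15 (median 0.26), and their sums were apart (1256 to 1304 CPM against 812 to 1086). The source of these differences in sums was not tested.

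Several matrix and adhesion genes were lower in the class under 150. Of 31 basement membrane and matrix genes 0 were counted higher and 13 lower, with a median of -0.83. The 13 include Col18a1, whose lower level set the classes. Lamb2 stood at 41.0, 37.5 and 25.2 CPM against 207 to 338 with a median of 282 (-3.01), and Col4a1, a collagen IV chain, at 11.3, 14.5 and 11.2 against 61.3 to 107 with a median of 82.9 (-2.73). Of 24 integrin, hemidesmosome and focal adhesion genes 1 was higher and 12 lower (median -1.002). Flna, the actin crosslinker filamin A, stood at 93.0, 84.5 and 105 CPM against 623 to 1106 with a median of 782 (-3.05), and the fibronectin receptor subunit gene Itga5 at 4.08, 6.08 and 3.30 against 18.9 to 78.5. The 1 member counted higher, Itgb1, encodes the partner chain of Itga5 and stood at 484, 459 and 415 CPM against 111 to 243. Mesenchymal transition genes had 0 higher and 4 lower of 13 (median -1.31), among them Zeb1 at 0.656, 0.417 and 0.537 CPM against 1.14 to 7.98.

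Genes of epithelial identity went in both directions. Of 32 keratin and junction genes 4 were counted higher and 4 lower (median -0.13). Epcam, the antigen of the sort, stood at 1058, 919 and 649 CPM in the 3, against 122 to 232 with a median of 197 (2.17). Cdh1, the adherens junction gene of E-cadherin, stood at 702, 579 and 595 CPM against 1728 to 2747 with a median of 2287 (-1.83), so these epithelial adhesion genes lay on opposite sides with the classes apart for both. Krt19, a ductal keratin gene, overlapped at 5411, 4058 and 4022 CPM against 4835 to 6412. Of 26 classical pancreatic cancer genes 1 was higher and 3 lower (median -0.17). Hnf4a, an endodermal transcription factor gene, stood at 37.2, 19.6 and 28.0 CPM against 169 to 286 with a median of 191 (-2.85). None of 15 basal-like genes was counted.

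The 34 genes of N-glycan synthesis and processing include Mgat2 itself. They held 2 higher members, Mgat2 and Mgat4b, and 4 lower (median 0.06). The branching enzymes next to Mgat2 in the pathway lay on both sides. Mgat4b was higher at 14.1, 20.2 and 14.9 CPM against 1.05 to 6.24. Mgat1 was lower and stood at 38.0, 35.8 and 30.6 CPM against 83.4 to 112, and Mgat5 at 60.7, 44.7 and 52.0 against 99.6 to 150. Of 30 splicing genes 3 were higher and 0 lower (median 0.30), with Srsf6, a serine-arginine splicing factor, at 152, 139 and 104 CPM against 25.2 to 53.02. Cholesterol synthesis genes had 0 higher and 3 lower of 21, and Srebf2, a transcription factor gene of sterol synthesis, stood at 46.6, 49.7 and 55.7 CPM against 332 to 438. Counts were 1 higher and 3 lower of 21 for ERK output, 2 and 1 of 23 for glycolysis, 0 and 2 of 34 for DNA replication, 1 and 3 of 23 for NF-kB and STAT3, 0 and 1 of 29 for interferon, 0 and 2 of 17 for TGF-beta, 0 and 3 of 15 for YAP, 1 and 1 of 20 for lysosome, and 1 and 1 of 18 for nuclear long noncoding genes.

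**Figure D2:**
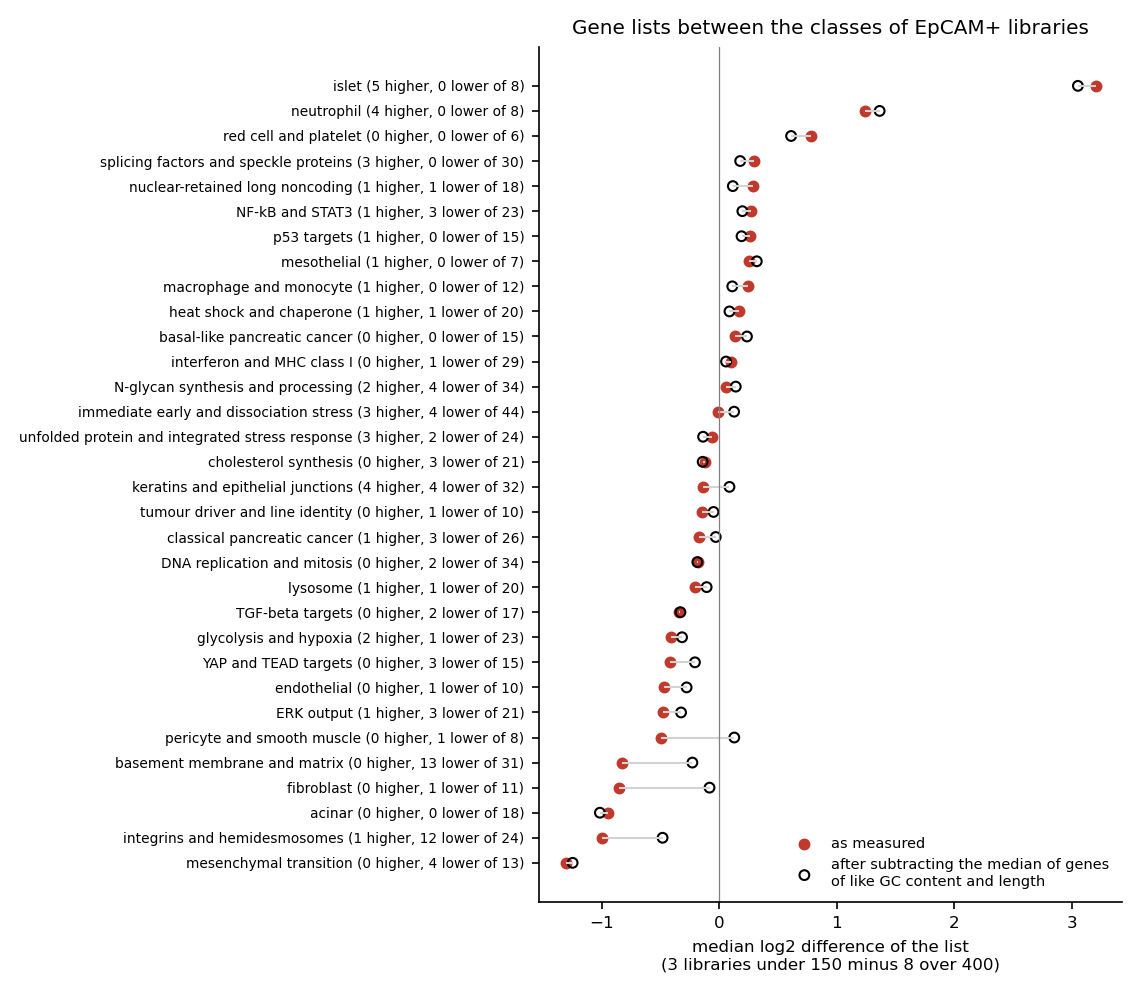
Median log2 difference (class under 150 minus class over 400) of each gene list, from the TMM-scaled levels (filled) and after subtracting each library's median deviation of genes of like GC content and length (open). The lymphocyte, Schwann cell and sex-linked lists, which had few tested genes, are left out. Islet and neutrophil genes stand at 3.20 and 1.24 before and 3.05 and 1.37 after, while the basement membrane list goes from -0.83 to -0.23.

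Markers of other cells also differed. Of 8 islet genes 5 were counted higher and 0 lower (median 3.20), and their summed level was 826 to 1481 CPM in the 3 libraries against 46.6 to 408 in the 8. Ins2, an insulin gene, stood at 657, 907 and 237 CPM against 9.21 to 83.5 with a median of 31.0 (4.06), and Sst, the somatostatin gene, at 120, 128 and 104 against 0 in N53194 to 22.2. Gcg, the glucagon gene, overlapped at 30.5, 8.31 and 211 CPM against 1.95 to 254. Of 8 neutrophil genes 4 were higher, with sums of 16.2 to 38.1 CPM against 2.23 to 9.16, and S100a8 at 16.6, 5.21 and 13.7 against 0.255 to 2.41. Fibroblast genes were lower in 1 of 11 cases, with sums of 19.8 to 80.2 CPM against 30.05 to 276. Acinar genes were counted in 0 of 18 cases, with sums of 12.6 to 115 against 8.99 to 1471. Macrophage genes had 1 higher of 12 (386 to 550 CPM against 258 to 437), endothelial genes 1 lower of 10 (4.62 to 8.18 against 8.46 to 30.6), and pericyte genes 1 lower of 8 (13.6 to 44.2 against 10.2 to 36.0). Red cell, lymphocyte and Schwann cell genes were counted in 0 of 6, 3 and 4 cases, and mesothelial genes, which include genes that tumour epithelium also expresses, had 1 higher of 7. The part of these cells in the other differences was not tested, and in bulk RNA fewer cells of a type and less RNA per cell cannot be told apart.

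Transcript length and base composition moved with the difference. Across 10079 protein-coding genes with a mean of at least 5 CPM, the difference had a Spearman correlation of -0.31 with transcript length and -0.33 with GC content, both given as descriptions because genes share the libraries. Median length was 2556 bases for higher and 4163 for lower genes, against 2823 for all, and median GC content was 48.9, 56.2 and 50.2%. Among the 201 genes in the top bin of 5 for both, 73.6% were counted lower and 0% higher, with a median of -1.80. The higher genes had a feature of another kind: 61.9% of 433 held a 100-base window of at least 80% GC, against 14.97% of 1142 lower genes and 20.1% of 9863 genes in all. That window began within the first 500 bases of the transcript in 92.8% of higher, 68.9% of lower and 80.7% of all genes. In the higher genes it lay before the coding sequence in 56.1% and within it in 43.2%, close to the 54.7 and 39.9% of all genes. Their median CpG ratio, observed over that from the base composition, was 0.520, against 0.385 for lower and 0.420 for all genes. The window and CpG measures were added after the data were seen.

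**Figure D3:**
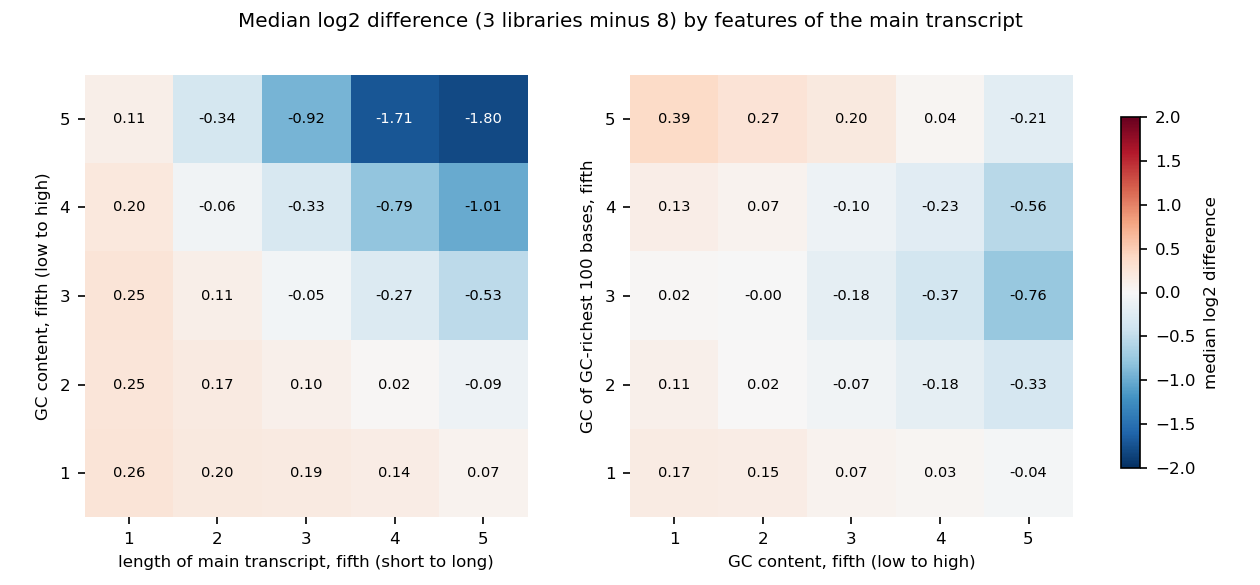
Genes in 5 equal bins of transcript length against GC content (left) and of GC content against the GC of the richest 100 bases (right), each cell coloured and labelled by its median log2 difference (class under 150 minus class over 400). The cell of the longest and most GC-rich genes stands at -1.80 over 201 genes, and that of low overall GC with the richest window at 0.39 over 337.

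When each library's median deviation of genes of like GC content and length was subtracted, the lower count went from 1375 to 660, of which 610 were among the 1375. The higher count went from 667 to 876, of which 559 were among the 667. Basement membrane genes then had 0 higher and 7 lower members (median -0.23), integrin and adhesion genes 2 and 7 (-0.48), and mesenchymal genes 0 and 3 (-1.25). Keratin and junction genes had 3 higher and 1 lower (median 0.09), against 4 and 4 before. Islet and neutrophil medians were 3.05 and 1.37. With highest-window GC subtracted as well, 649 genes were higher, 409 of them among the 667, and 561 lower, 474 of them among the 1375. Integrin and adhesion genes then had 0 higher and 3 lower members (median -0.29) and basement membrane genes 1 and 8 with a median of -0.03, near 0. Keratin and junction genes had 2 and 3 (0.25). Mesenchymal genes stayed at 0 and 3 (-1.09), and islet and neutrophil medians were 3.06 and 1.43.

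The use of transcripts within genes was also described. Among 64653 transcripts in 9722 well-covered genes, 871 (1.35%) differed in their share of the gene's reads with ranges apart and means at least 20 percentage points apart, 442 with a higher and 429 with a lower share in the class under 150. Of those with a lower share, 294 of 429 were longer than the read-weighted mean of their gene, against 187 of 442 of those with a higher share. By type, retained-intron transcripts were 61 of the higher and 10 of the lower shares, and processed transcripts without a coding sequence 30 and 8. In 313 genes that held both kinds, the transcript with the higher share was the shorter in 202 and began further downstream by more than 50 bases in 165, upstream in 72 and within 50 bases in 76. Ends lay within 50 bases in 168, further downstream in 78 and upstream in 67. Ttyh3, a membrane protein gene of the tweety family, switched nearly whole: Ttyh3-201 took 0% in all 3 libraries and 77.5 to 100% in the 8, and Ttyh3-202 took 99.3 to 100% and 0 to 21.9%. In Prpf8, a core spliceosome gene, Prpf8-202 took 89.5 to 96.3% in the 3 and 1.16 to 21.4% in the 8.

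Mgat2, Col18a1 and Epcam were each carried almost wholly by a single transcript in all 11 libraries. Mgat2 has a single transcript of 1 exon, Col18a1-202 took over 96.9% of reads in all 11 libraries and Epcam-204 over 97.7%. Dusp1-202 took 97.9 to 98.5% in the 3 and 58.7 to 96.7% in the 8, and the alternative Dusp1-206 took 0.05, 0.13 and 0.32% in the 3 against 1.58% in V53192 and up to 38.8% elsewhere. These shares are Salmon's assignments of reads among overlapping transcripts.

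**Figure D4:**
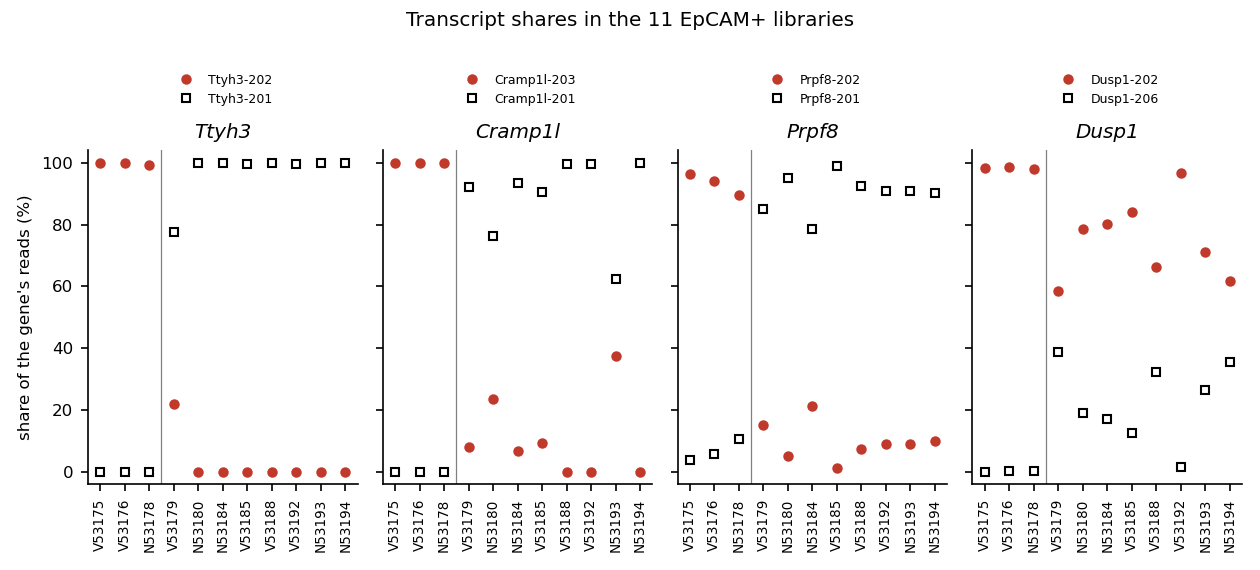
Share of the gene's reads (percent) on the named transcripts of Ttyh3, Cramp1l, Prpf8 and Dusp1 in each of the 11 EpCAM+ libraries, 1 point per library and transcript, with the 3 libraries under 150 CPM of Col18a1 left of the line. Red circles are the transcripts with a higher share in those 3, and open squares the alternatives. For Dusp1 the library V53192 lies next to the 3.

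Depth, genes detected and mitochondrial share overlapped between the classes. The 3 libraries held 76.9, 52.6 and 40.3 M transcript reads and the 8 held 45.3 to 58.8 M. Genes with at least 10 reads numbered 16542 to 17984 against 16608 to 17709, and mitochondrial genes took 2.27 to 2.83% of reads against 2.10 to 2.61%. Retained-intron transcripts took a smaller share of all reads in the 3, 2.78 to 2.86% against 2.87 to 3.26%, although most of those whose share within their gene was counted had a higher one. Measures of length and composition also separated the classes: ribosomal protein genes took 3.44 to 3.83% of reads against 2.62 to 3.39%, transcripts over 5 kb took 8.62 to 9.53% against 10.51 to 13.1%, and read-weighted GC was 49.4 to 49.8% against 50.1 to 50.6%. These shares are made of gene levels and so are not independent of the rule.

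Labels and measures that are not gene levels were tested, 5 in all. Treatment was tested with Fisher's exact test and the others by exact two-sided permutation of 3 against 8 libraries. With 165 splits no permutation p can be under 0.00606, and ties between libraries raise that limit. Mouse numbers were lower in the class under 150, V53175 to N53178 against V53179 to N53194 (exact p = 0.0182, adjusted 0.0909). No other 3 libraries have lower mouse numbers, so no smaller p was possible in that direction. Each deposited name holds a letter-and-digit code that no source used here explains. The 3 libraries were C7, D7 and E7, and the 8 held G7 (N53184) and H7 (V53192), 4 codes of column 8 and 2 of column 9. The mean column gave an exact permutation p = 0.0848 (adjusted 0.212). All 3 had the lowest column, shared with N53184 and V53192, so no smaller p was possible in that direction. This test therefore could not decide whether column goes with class. Total reads (exact p = 0.473), the shortfall of effective length, which follows fragment length (exact p = 0.727), and treatment (Fisher's exact p = 1) did not pass. For treatment no split over 3 and 8 libraries could have passed. Within EpCAM+ cells the 3 libraries hold both the lowest mouse numbers and column 7. N53184 and V53192 also have column 7, with higher mouse numbers, and stood at 741 and 700 CPM of Col18a1 by the rule's measure. Column 7 alone thus did not go with the class under 150. None of the 3 has another column, so the part of each label in them cannot be told apart. PDPN+ libraries, below, pair other mice with column 7.

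Within the 8, the libraries with column 7 lay toward the 3 for the higher genes. N53184 and V53192 lay above all of the other 6 for 256 of the 667 higher genes (38.4%), against 8.88% of all genes, and the mean difference was positive for 537 of the 667 (80.5%) against 51.8% of all. For the 1375 lower genes the 2 libraries lay below the other 6 in 222 cases (16.1%) against 6.47% of all. Xbp1 stood at 318 CPM in V53192, and Jun at 981. These counts are descriptions, since the 667 and 1375 genes were chosen on these 8 libraries too, and the comparison by code column was chosen after the data were seen.

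The 8 PDPN+ libraries, which the rule did not use, gave 2 comparisons. In the first, the libraries of V53175 and N53178, mice whose EpCAM+ library was under 150, were compared with the other 6 (edgeR quasi-likelihood test with treatment as a covariate). Of 18020 genes 0 were higher (0%) and 1 lower (0.00555%) at a Benjamini-Hochberg adjusted p under 0.05, with 1143 at an unadjusted p under 0.05, and DESeq2 called 155 higher and 982 lower. The 1 gene, Gvin1, an interferon-inducible GTPase gene, had 0 reads in both libraries and 46.0 to 123 CPM in the other 6, at least 945-fold lower against a floor of 3 reads per library (edgeR adjusted p = 0.0142). The call was lost with limma voom (adjusted p = 0.869) and in edgeR without V53188 (0.0802), N53184 (0.0843), V53185 (0.0941) or V53179 (0.0909), and over the alternatives its adjusted p ran from 9.37e-16 with DESeq2 to 0.869. The genes higher in EpCAM+ cells were positive in 183 of 603 cases (median -0.78), the lower ones in 543 of 1304 (-0.28), and all genes in 42.1% (-0.24). The higher genes of the EpCAM+ class were thus more often lower than higher in the PDPN+ libraries of the same mice. The 6 they were compared with include N53194 and V53185, where these genes were high (below). Without N53194 the higher genes were positive in 40.6% of cases against 43.8% of all genes, and without V53185 in 38.6% against 44.5%. V53175 also had 12102 genes with at least 10 reads, against 11924 in V53188 and 13691 to 18602 in the others, and the part of this in the counts was not tested.

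In the second, the PDPN+ libraries with column 7, N53194 (B7) and V53185 (F7), were compared with the 6 of column 6. Unlike the first, this comparison was not planned and was chosen after the data were seen. V53185 had more genes with at least 10 reads than any other PDPN+ library (18602, against 11924 to 16150 in the 6 and 14682 in N53194) and the lowest mitochondrial share (5.74%, against 7.54 to 17.7% and 11.9%). The 2 libraries lay above all 6 for 173 of 571 higher genes (30.3%), against 5.33% of 16237 genes. For lower genes they lay below all 6 in 12 of 1271 cases (0.944%), against 1.48% of all, and above in 39 (3.07%). In edgeR 0 of 18020 genes passed in either direction (0%), with 474 higher and 65 lower at an unadjusted p under 0.05, while DESeq2 called 57 and 12 and limma voom 55 and 0. Of the genes higher in the EpCAM+ class 486 of 603 were positive (80.6%, median log2 fold change 1.15), against 51.9% of all genes (0.04), and of the lower ones 684 of 1304 (52.5%, 0.03). Without V53185 441 of 609 higher genes were positive (72.4%, median 0.99) and 520 of 1318 lower ones (39.5%, -0.33), against 41.6% of all (-0.18), and without N53194 the medians were 1.08, 0.30 and 0.10. Jun had the smallest p, with a log2 fold change of 2.09 (SE 0.26, edgeR adjusted p = 0.172).

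With PDPN+ libraries scaled alone, Dusp1 stood at 2067 and 675 CPM in PDPN+ N53194 and V53185, against 195 to 296 in the 6. Rcn2 stood at 158 and 98.9 CPM against 2.53 to 20.3, and Xbp1 at 532 and 285 against 39.4 to 186. Both libraries lay above the 6 for these genes and for Mgat2, at 76.4 and 55.2 CPM against 11.3 to 48.6. Col18a1 overlapped at 75.3 and 47.0 CPM against 21.1 to 103.03, as did Lamb2 at 144 and 124 against 47.0 to 282, and Chpf2, lower in the EpCAM+ class, lay above the 6 here at 19.5 and 11.1 CPM against 0.247 to 11.0. The EpCAM+ libraries of these 2 mice had columns 8 (A8 and C8) and were over 400 CPM of Col18a1. Among transcripts, 254 with a higher share in the EpCAM+ class under 150 had a median difference of 7.35 percentage points in PDPN+ column 7, positive in 178 (70.1%), against -0.37 and 45.8% for 14518 transcripts with a mean share of at least 5%. The 252 with a lower share had -0.94, positive in 42.1%. In the PDPN+ libraries of V53175 and N53178 the higher-share transcripts had -3.44 (42.1% positive) and the lower-share ones -1.33 (38.1%), against 0 and 49.2% for the 14518, so the lower-share transcripts moved no less there than in column 7.

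**Figure D5:**
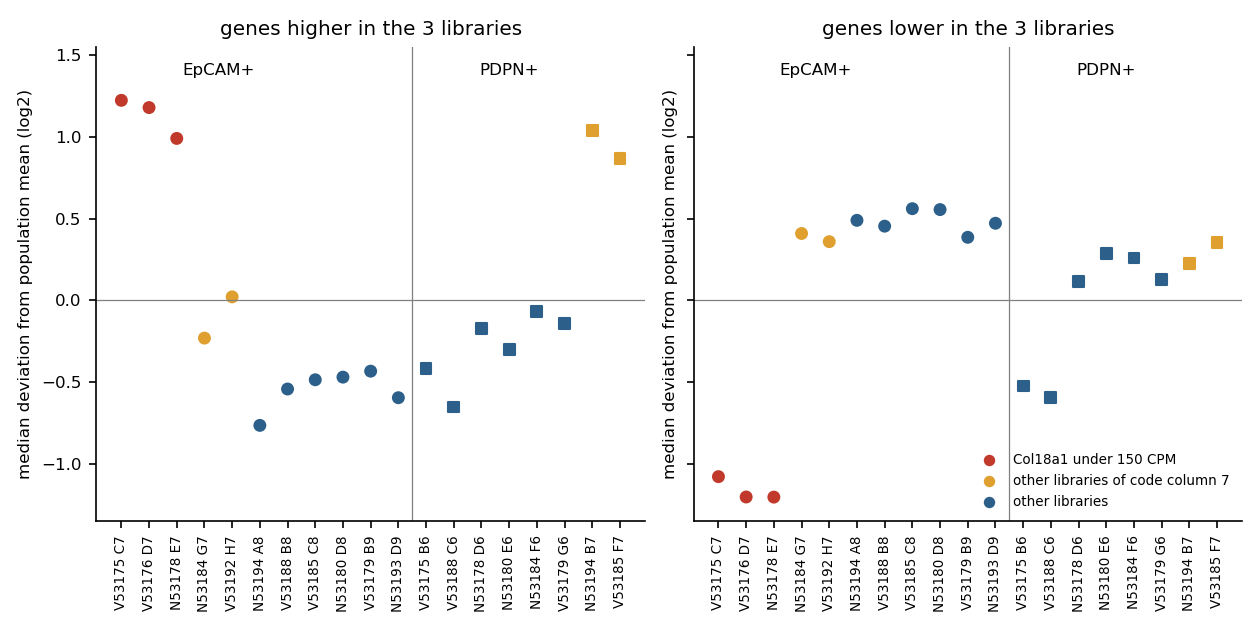
Median log2 deviation from the population mean of the genes counted higher and of those counted lower between the EpCAM+ classes, 1 point per library, for EpCAM+ and PDPN+ libraries and by the column of the code in the deposited names. The higher genes stand at 0.99 to 1.22 in the 3 EpCAM+ libraries that set them and at 1.04 and 0.87 in the PDPN+ libraries N53194 and V53185, against -0.65 to -0.07 in the other 6 PDPN+ libraries. The medians of all genes, not drawn, are 0.11 and 0.24 in N53194 and V53185 and -0.25 to 0.18 in the other 6.

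Scored per library, the higher genes had median deviations of 1.22, 1.18 and 0.99 in the 3 EpCAM+ libraries, -0.23 in N53184, 0.02 in V53192 and -0.77 to -0.43 in the other 6. In PDPN+ cells they had 1.04 in N53194, 0.87 in V53185 and -0.65 to -0.07 in the rest. The lower genes had -1.21 to -1.08 in the 3 and 0.36 to 0.56 in the 8. In PDPN+ cells they were lowest in V53175 (-0.53) and V53188 (-0.60), against 0.12 to 0.35 in the other 6. The higher genes were thus high in code column 7 of PDPN+ cells, in mice other than the 3. In those libraries, N53194 and V53185, the lower genes stood at 0.22 and 0.35, against 0.11 and 0.24 for all genes. What the code stands for, and its part in these levels, was not tested.

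Neratinib was compared with vehicle within the 8 libraries over 400 CPM, 4 against 4, to see the drug contrast without the class split. In edgeR 0 of 16942 genes passed in either direction (0%), with 411 higher and 386 lower at an unadjusted p under 0.05. DESeq2 called 12 and 24, and limma voom 0. The genes with the smallest p were Ggh, a gamma-glutamyl hydrolase gene, Car2, a carbonic anhydrase gene, and Lgals3, the galectin-3 gene, each at an edgeR adjusted p of 0.902. Of the genes higher in the class under 150, 149 of 628 were positive with the drug (median -0.20), and of the lower ones 846 of 1375 (median 0.05), against 51.1% of all genes (median 0.006). Without V53192 346 of 631 higher genes were positive (54.8%, median 0.03) and 747 of 1375 lower ones (54.3%), against 52.3% of all genes. Leaving out any other library kept the positive share of the higher genes at 17.0 to 31.9%. These fitted values share the 8 libraries that helped choose the genes.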

How the data were processed

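RNA of sorted EpCAM+ and PDPN+ cells was measured in 19 libraries. Per the submitters' processing notes, the authors used Salmon 1.9.0 and GRCm39/mm39. Neither the transcript annotation nor the options of the run are given in the sources used. Per the file headers, the deposited tables hold, for each transcript, the authors' estimated counts, which are not normalised, its TPM and its effective length.

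Of 147828 transcripts 137063 matched GENCODE M21, a GRCm38 annotation used for names, lengths and sequences only, and were summed to 51707 genes and rounded. The 10765 unmatched transcripts count only in the total behind the rule's CPM. Strandedness is not given, so overlapping genes may share reads. Scaling was TMM (edgeR 4.0.16, R 4.3.3) with 0.5 CPM added on the log2 scale. Fits used edgeR's robust quasi-likelihood F-test with filterByExpr and a Benjamini-Hochberg adjusted p threshold of 0.05. DESeq2 1.42.0 and limma 3.58.1 (voom) were alternatives. Scripts used Python 3.11.15, pandas 2.3.3, numpy 2.4.6, scipy 1.17.1 and matplotlib 3.10.9. The count of genes with ranges apart and the edgeR fits for neratinib and for PDPN+ code column were tested on simulated data. The transcript shares and the PDPN+ fit of the same mice were not. Library depth was 40.3 to 76.9 M transcript reads in EpCAM+ cells. Reads carry no molecular identifiers, so the floor of 3 reads covers counting error only.

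The classes, the 35 gene lists and the tests were chosen with earlier results of these data known. Genes were named by a rule: Col18a1, Dusp1, Mgat2, Epcam, the 12 per direction with the largest difference among counted genes of at least 20 CPM, up to 3 members per list, and, in each test with fewer than 3 passing genes, the 3 with the smallest p. Others are said to be named after their values were seen, and include Egr1, Itgb1, Mgat1, Mgat5, Gcg, Krt19 and the members of counts of 5 or fewer. Alternatives were other scaling, added CPM, filters, TPM, bins of sequence features, and leaving out each library.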

Additional observations from a re-analysis of the deposited data

Results flagged for a closer look

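In the 8 EpCAM+ libraries over 400 CPM of Col18a1, 28 genes were examined for a single library far from the other 7. In 8 genes the library was V53192, the vehicle library with code H7, and it was the highest except for Fos. It stood at 238 CPM for Dusp1, 77.9 for Rcn2, 35.6 for Tmem102, 133 for Ndfip1, 353 for Rsrp1, 981 for Jun and 318 for Xbp1, and it was the lowest for Fos at 4083. N53184 stood far above the rest for Iapp at 28.7 CPM, and N53180 for Fam83h at 164. The limit used marks by its construction about 1 in 20 groups by chance, and the genes are not independent because they share the libraries.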

How the results depend on the processing

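Counts of genes between the classes ran from 475 (TPM with 1 added) to 876 (GC and length bins subtracted) for higher and from 561 to 1552 for lower genes. Lower genes numbered 660 with the bins of GC content and length subtracted, of which 610 were among the 1375, and 561 with highest-window GC subtracted as well, of which 474 were. Higher genes numbered 876 and 649 in these settings, of which 559 and 409 were among the 667. Leaving out each EpCAM+ library in turn gave 650 to 809 higher genes, 1358 to 1522 lower genes and 875 to 1082 transcripts. With vehicle libraries alone the counts were 833 and 1552. Of 120 named genes 44 moved by more than the spread between libraries with GC and length bins subtracted, 52 with highest-window GC subtracted as well, 22 with TPM and 13 with 2 CPM added, and 3 turned sign under some alternative: Notch3 (0.019 with GC and length bins subtracted), Tie1 (0.32 with highest-window GC subtracted as well) and Hba-a2, which ran from -0.81 without V53176 to 2.00 without N53178.

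In the PDPN+ libraries of V53175 and N53178, DESeq2 called 155 higher and 982 lower genes, limma voom 2 and 0, and edgeR with no low-count filter 2 lower. Leaving out a library gave 0 to 4 lower genes: 0 without V53188, N53184, V53185 or V53179, 3 without V53175 and 4 without N53178, where the lone library of its arm is assumed to vary like the others. For code column 7 in PDPN+ cells, DESeq2 called 57 higher and 12 lower genes, limma voom 55 higher, edgeR with no low-count filter 1 higher, and leaving out a library gave 0 to 1 higher, the 1 without N53178. For neratinib in the 8 libraries DESeq2 called 12 and 24, and leaving out any library gave 0. The causes of these differences were not tested. No paired analysis was possible because no mouse is in both classes or in both treatments of a population. A class of 3 libraries and arms of 2 limit the precision, and splits of 3 against 8 share their libraries across all genes.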
